A study of Mus musculus with 2 samples.

Results

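The DN and early progenitor-like thymocytes were 417 of the 4249 cells that carried hashtag 11, 13, 15 or 17 in a droplet library of mouse thymocytes. DN (double negative) thymocytes carry neither CD4 nor CD8 on their surface. Cells were chosen by measured values, namely if their transcripts of Il2ra, Cpa3, Adgrg1 and Igfbp4 summed to at least 2 unique molecular identifiers (UMIs), with 0 UMIs of Cd8b1, at most 1 of Cd79a, fewer than 5 of H2-Aa and 0 of Foxp3. Il2ra encodes the IL-2 receptor α chain (CD25), Cpa3 a carboxypeptidase, Adgrg1 an adhesion G protein-coupled receptor and Igfbp4 an insulin-like growth factor binding protein. Cd8b1, Cd79a, H2-Aa and Foxp3 mark CD8 T lineage cells, B cells, cells that present antigen on MHC class II, and regulatory T cells. Since these 8 genes chose the members, their levels are given as a description only. The same holds for every contrast of members with other cells, because all of it rests on the same cells and counts.

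The study asked how Kidins220, a membrane protein that binds the TCR, acts in the development of iNKT cells, T cells with an invariant TCRα chain that recognise lipids on CD1d. Ctrl mice (Kidins220 +/fl or Kidins220 +/+ with LckCre) were compared with T-KO mice, in which the floxed alleles of Kidins220 fl/fl mice were deleted by Cre under the proximal Lck promoter, which is active from the DN2 stage of T cell development on, all on a C57BL/6 background. Thymi of 4 mice per genotype were pooled, and from each pool stage 0 iNKT cells (TCRβ+ CD1dt+ CD24+ NK1.1-) and stage 3 iNKT cells (TCRβ+ CD1dt+ NK1.1+ CD24- CD44+) were sorted, where CD1dt is the CD1d tetramer. With a parallel repeat this gave 8 populations, each marked with its own hashtag antibody and run together in 1 library, in which 0 barcodes were listed more than once. The methods give ages for the study's mice in general and none for these pools. The methods describe the tetramer stain of this sort as poor and say that DN thymocytes, DP (CD4+ CD8+) thymocytes, B cells and myeloid cells were removed before the study's own comparisons. No source used here pairs hashtag rows 11 to 18, which held nearly all hashtag UMIs, with a stage or genotype. The rows are therefore given one by one, no row is called Ctrl or T-KO, and no genotype was compared.

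T cells arise in the thymus from progenitors that come from the bone marrow and at first express neither CD4 nor CD8. Notch signals from the thymic epithelium switch on the T cell programme (Tcf7, Gata3, Bcl11b), while genes of stem cells and of myeloid cells (Flt3, Cd34, Spi1) are shut down. CD25 marks the middle of this transition, when the TCRβ, TCRγ and TCRδ loci rearrange. Cells that complete a TCRβ chain pair it with the pre-TCRα chain (Ptcra) and go on to the DP stage, where TCRα is rearranged, whereas others become γδ T cells.

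Members made up a similar share of the 4 rows. Row 11 held 116 members among 1176 cells (9.86%, 95% Clopper-Pearson interval 8.22 to 11.7) and row 13 held 175 among 1601 (10.9%, 9.44 to 12.6). Row 15 held 80 among 889 (9.0%, 7.20 to 11.1) and row 17 held 46 among 583 (7.89%, 5.83 to 10.4). Each of these intervals overlapped the others, and all 4 lay above the intervals of rows 12, 14, 16 and 18, where the same thresholds took 7 of 1752, 14 of 2162, 4 of 577 and 14 of 1267 cells. Pooled, the shares were 9.81% (8.94 to 10.8) in the rows of the selection and 0.677% (0.482 to 0.925) in the others. Since the 4 rows were part of the selection, this difference is a description. The pooled share in rows 12, 14, 16 and 18 was 0.156% with a sum of at least 3, and 0.231% when cells were first thinned to 2000 UMIs. All intervals here cover counting error only.

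**Figure D1:**
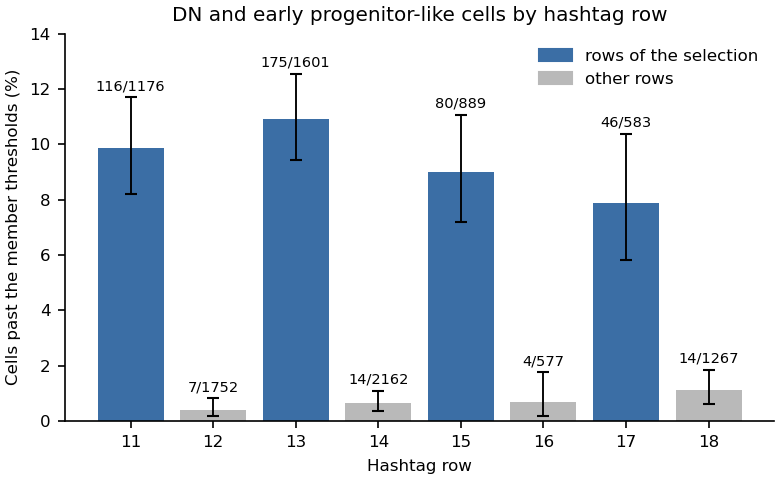
Share of the kept cells of each hashtag row (in percent, bars) that passed the member thresholds, with exact 95% intervals and with members over cells printed above each bar. Rows 11, 13, 15 and 17 lie between 7.89% and 10.9%, and rows 12, 14, 16 and 18 between 0.400% and 1.11%.

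Members were deeper than their neighbours. They had a median of 11254 UMIs and 3731 genes per cell, against 6662.5 UMIs and 2486 genes in the 3832 other cells of the same rows. The 1321 other cells that passed the 4 exclusions but not the sum of 2 had a median of 4064 UMIs. Of the members 38.4% had over 4000 genes, against 15.5% of the other cells, and cells sharing a hashtag cannot be separated as doublets by the hashtag. Levels are therefore expressed as CPM, the UMIs of a gene in each 1000000 gene UMIs of the same cells, with exact Poisson intervals. Shares of cells are also given after thinning to 2000 UMIs, which left out cells too shallow for it. This kept 413 members, 3620 of all other cells and 1188 of those past the exclusions. In total, members held 4820914 UMIs, from 519108 in row 17 to 1866642 in row 13. The part of the greater depth in the differences below was not tested.

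The 4 genes of the sum were carried together by many members. Il2ra (GRCm38 chr2:11642807-11693193, plus strand) had a UMI in 309 members (74.1%), Cpa3 (chr3:20215620-20242181, minus strand) in 266 (63.8%), Adgrg1 (chr8:94974751-95014217, plus strand) in 351 (84.2%) and Igfbp4 (chr11:99041244-99054392, plus strand) in 295 (70.7%). Of the members, 173 carried all 4 genes, 101 carried 3, 83 carried 2 and 60 only 1. In rows 11, 13, 15 and 17, Il2ra stood at 341, 467, 364 and 314 CPM in members and at 11.7, 16.5, 11 and 19.7 CPM in the other cells. Igfbp4 was at 522, 368, 258.5 and 329 CPM in members and below 10 CPM in the other cells of every row. The median sum was 15 UMIs and the highest was 84, while 44 members stood at the threshold of 2 and 149 cells just under it at 1. Across that edge, members with a sum of 2 had 269 CPM of Plac8 and 75.4 CPM of Tcrg-C1, against 173 and 20.4 CPM in the cells with a sum of 1. In the members at the edge, both Mpo and Cd34 were at 0 UMIs of 44 cells, and Cd3e was at 880 CPM, close to the 773 CPM of the cells just outside.

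Members had little of the coreceptor transcripts. Cd4 was at 5.06, 8.04, 1.90 and 3.85 CPM in rows 11, 13, 15 and 17 and Cd8a at 4.34, 4.82, 6.65 and 3.85 CPM. The 67 DP-like cells of the same rows, picked for a UMI each of Cd4, Cd8b1 and Rag1, had 173 CPM of Cd4 and 530.5 CPM of Cd8a, in part by this choice. Not all DP genes were low in members. Of 8 countable genes of the DP list Dntt was higher than in all other cells and 3 were lower, Cd8a among them, and the list summed to 1074 CPM in members, 730.5 CPM in all other cells and 452 CPM in those past the exclusions. Trac, the TCRα constant region, was at 13.5 CPM in members and 136 CPM in the other cells past the exclusions. The low Cd8a is in part set by the rule, which took cells with 0 UMIs of Cd8b1. The 31 members without a UMI of Mpo, Plac8, Ptcra or Tcrg-C1 went against the name DN and early progenitor-like, with Cd4 at 68.1 CPM, Trac at 107 CPM, Cd3e at 920 CPM and Ccr7, a gene of mature T cells, at 321 CPM. Of the 458 UMIs on TCRα variable segments in members, only 2 (0.437%, 95% Clopper-Pearson interval 0.0529 to 1.57) were on Trav11 and its copies, the segment of the invariant iNKT TCRα chain. The share was 0.489% in all other cells and 0.246% in those past the exclusions, so a low share was not particular to members. Klrb1c, which encodes NK1.1, was at 4.77 CPM in members and 5.55 CPM in all other cells.

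Against all other cells of their rows, members were at least 2-fold higher for 217 of 8784 genes (2.47%) and at least 2-fold lower for 441 (5.02%), with the same direction in all 4 rows. The genes counted had a mean of at least 10 CPM over both groups, and the ratio was taken after 10 CPM were added to each side, with the genes of the rule left out. A gene could pass this minimum through the group where it was high. Counts of listed genes are therefore descriptions, to be read beside the shares over all genes. The counts over all genes depend on these settings: with 50 CPM added they were 55 and 176, with a minimum of 50 CPM 93 and 179, and with 1 CPM added 367 genes were higher. Without cells of over 4000 genes they were 337 and 551. The median log2 ratio of all genes was 0.11. Because the other cells include B cells and MHC class II-rich cells, the other cells past the exclusions served as a second reference, added after the data were seen. Against these, 272 of 8740 genes (3.11%) were higher and 385 (4.41%) lower, around a median of -0.04. Both comparisons share the members. Of the genes higher in the first, 168 were also higher in the second, which is 77.4% of the first list and 61.8% of the other, and the 20 genes with the largest ratios were in both.

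Several of the 20 genes with the largest ratios are known from blood progenitors. Mpo, the myeloperoxidase of granulocyte precursors, was at 294, 149.5, 124 and 61.6 CPM in rows 11, 13, 15 and 17, against 1.57 to 5.50 CPM in the other cells of these rows (log2 ratio 3.83). Its members' level was highest in row 11 and lowest in row 17, and in each row it was above every row of the other cells. Cd34, a surface sialomucin of stem and progenitor cells, was at 155, 102, 93.2 and 69.4 CPM against 1.43 to 5.86 CPM (log2 ratio 3.09). The order of the rows was the same as for Mpo. Erg, an ETS factor of stem cells and early T progenitors that is silenced at T commitment, was at 61.5, 51.4, 48.5 and 59.7 CPM in members and at most 1.68 CPM in any row of the other cells. Nfe2, a leucine zipper factor of megakaryocyte and red cell precursors, was at 117 CPM (3.26 in the other cells), and Angpt1, a ligand of the receptor Tie2, at 183 CPM (7.92 in the other cells).

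The list of early progenitor genes held 20 genes, of which 17 could be counted. Against all other cells, 8 were higher and 3 lower, with a median log2 ratio of 1.51 beside 0.11 for all genes. The 20 genes summed to 1750 CPM in members, 1544 CPM in all other cells and 499 CPM in those past the exclusions. By row, members and all other cells had from 2223 and 2208 CPM in row 11 to 1379 and 939 CPM in row 17. The higher genes included Kit, Cd34, Lyl1, Hhex, Myb, Mycn and Cd93. Kit, the receptor of stem cell factor, was at 129, 109, 66.5 and 110 CPM in members and at 26.1 to 37.1 CPM in the other cells. Hhex and Lyl1, transcription factors of stem and progenitor cells, were at 67.6 and 87.1 CPM, against 14.8 and 19.7 CPM. Against the cells past the exclusions, 14 of the 17 were higher and 1 lower, now with Mef2c, Bcl11a, Spi1, Lmo2 and Cd44 among the higher, and Ly6a, which was lower against all other cells. Irf8, a factor of dendritic and myeloid cells, was lower in both contrasts, at 12.5 CPM in members, 317 CPM in all other cells and 43.7 CPM in those past the exclusions. Flt3, a cytokine receptor of the earliest progenitors that dendritic cells also carry, was at 17 CPM in members, below the 57.7 CPM of all other cells and above the 10.4 CPM of those past the exclusions. Its level in members was 39, 10.7, 6.65 and 1.93 CPM in rows 11, 13, 15 and 17.

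The genes of granulocyte precursors were not carried as a set. Of 10 listed genes 6 could be counted, with Mpo, Plac8 and Ctsg higher, Lyz2 lower and Calr and Srgn within 2-fold. Ctsg, cathepsin G, was at 24.7 CPM against 0.326 CPM in the other cells. Elane, Prtn3 and Cebpe, which neutrophil precursors express together with Mpo, stood at 0.207, 0.622 and 0.415 CPM, and Ms4a3 had 0 UMIs. Plac8, a small protein of myeloid and lymphoid progenitors, had a UMI in 374 members (89.7%, or 78.2% after thinning). It was also common in the 786 B cell-like cells (at least 3 UMIs of Cd79a), with 76.5% before and 57.25% after thinning. Its level was 1379 CPM in members, 257 CPM in all other cells, 92.0 CPM in those past the exclusions and 632 CPM in B cell-like cells, and every row of the members (1087 to 1501 CPM) was above every row of the other cells (179 to 303 CPM).

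Outside the genes of the rule, the largest ratio was that of Hbb-bt (chr7:103812524-103813996, minus strand), an adult β-globin. It was at 233, 402, 203 and 863 CPM in members of rows 11, 13, 15 and 17, against 3.23 to 13.6 CPM in the other cells (log2 ratio 4.23). Only 68 members (16.3%) had a UMI of it, and 62.5% of its 1735 UMIs lay in 10 cells. In row 17, 1 cell held 231 of 448 UMIs, which is 51.6% of the high value there. Of the 8 listed red cell genes only Hbb-bt could be counted. Car1, Hba-a1 and Hba-a2 had 0 UMIs in members, Klf1 was at 0.415 CPM and Gata1 at 1.04 CPM. The paired globin copies are nearly identical, so the split of counts between Hbb-bt and Hbb-bs, or between the α-globins, is uncertain.

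**Figure D2:**
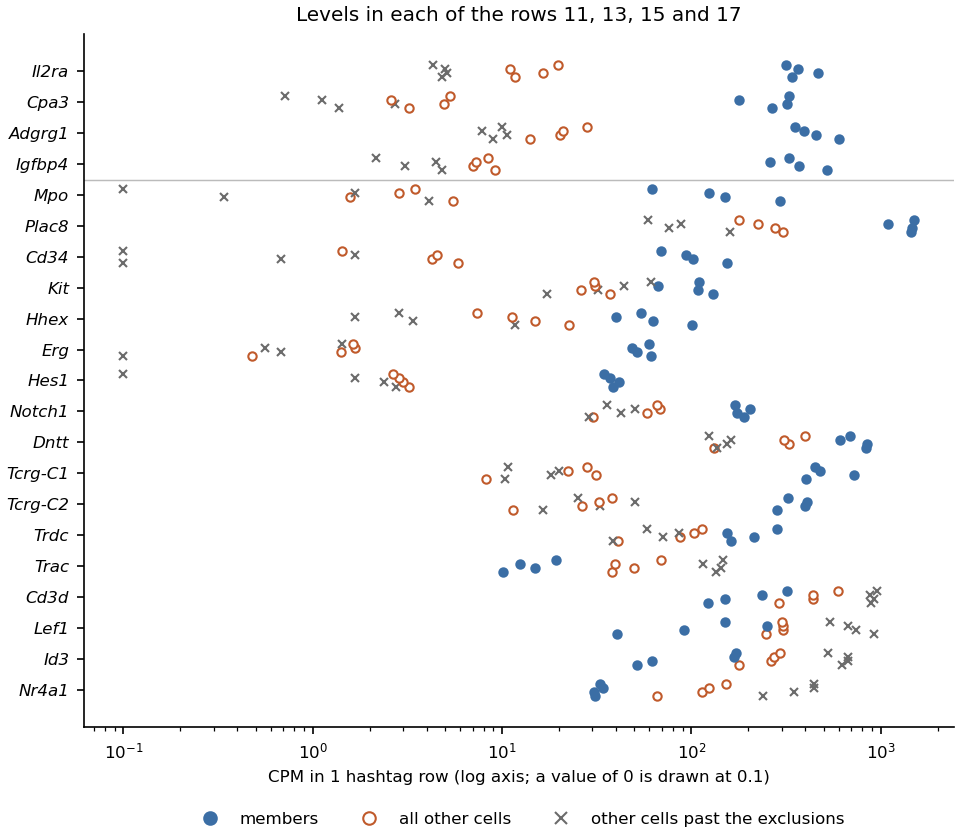
CPM of 21 genes (log axis) in each of the hashtag rows 11, 13, 15 and 17, for members (filled circles), all other cells (open circles) and the other cells past the exclusions (crosses), with the genes of the sum above the line. Each filled circle of Mpo, Cd34, Erg, Hes1, Tcrg-C1 and Tcrg-C2 lies to the right of the other cells, and those of Trac and Nr4a1 to the left.

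Notch signals induce a small set of genes in early thymocytes, of which some were higher in members. Hes1, a repressor that Notch induces directly, was at 38.3, 41.3, 37.1 and 34.7 CPM in rows 11, 13, 15 and 17 and at 2.66 to 3.23 CPM in the other cells (log2 ratio 1.91). Its level varied little between rows, and members and other cells did not overlap. Nrarp, a feedback inhibitor of Notch, was at 21.6 CPM against 3.56 CPM. Of the 5 countable Notch targets these 2 were higher and none lower, beside a background of 2.47% of genes higher. Against the cells past the exclusions 2 were higher and 1 lower, with a median log2 ratio of 0.25. The lower one was Cd3e, at 321 against 952 CPM. Notch3 stood at 16 CPM in members and 3.83 CPM in the other cells, too low to be counted, and Dtx1 at 6.85 and 5.75 CPM. The receptor Notch1 itself was higher, at 189, 174, 204 and 169.5 CPM against 30.1 to 67.9 CPM.

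Genes of T commitment split in direction. Of 15 countable genes 4 were higher (Notch1, Runx1, Il7r and Erg, of which Erg is itself silenced at commitment) and 3 lower (Lef1, Cd2 and Cd28), with a median log2 ratio of 0.19. Of all genes, 2.47% were higher and 5.02% lower in this contrast. Bcl11b, the factor that seals T commitment, was at 128, 171, 195 and 168 CPM in members and at 77.7 to 128 CPM in the other cells, a pooled log2 ratio of 0.64 that is under 2-fold. Tcf7 was at 557 CPM against 678, and Gata3 at 63.7 against 44.8 CPM. Lef1, which acts beside Tcf7 at the β-selection step and in later cells, was at 40.5, 91.6, 251 and 150 CPM in the rows, against 248 to 305 CPM. Against the cells past the exclusions the list leaned the other way, with 2 higher, 6 lower and a median of -0.18. There Cd2, an adhesion receptor of T cells, was at 26.3 CPM in members and 295 CPM in the reference.

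Of the 3 genes of receptor rearrangement Dntt was higher than in all other cells and Rag1 and Rag2 were within 2-fold. Dntt, the terminal transferase that adds bases at the joints, had a UMI in 360 members (86.3%, 62.0% after thinning) and was at 831, 846, 611 and 688 CPM, against 132 to 396 CPM in the other cells. DP-like cells had more of it, 954 CPM. Rag1 and Rag2, the recombinase subunits, were at 17.6 and 21.8 CPM in members, against 31.0 and 12.1 CPM in all other cells, and Rag1 was lower in each of the 4 rows. DP-like cells, which were picked for a UMI of Rag1, had 381 and 106 CPM. Rag2 was higher than in the cells past the exclusions (3.83 CPM) and Rag1 was within 2-fold of them (13.9 CPM).

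Transcripts of the TCRγ and TCRδ constant regions were higher in members, and Tcrg-C1 had the largest ratio of the T lineage genes on the lists. Tcrg-C1 (chr13:19214103-19217024, plus strand) was at 405, 718, 477 and 451 CPM in rows 11, 13, 15 and 17, against 8.25 to 31.5 CPM in the other cells (log2 ratio 4.07). Every row of the members was above every row of the other cells. Tcrg-C2 (chr13:19304649-19307551, minus strand) was at 284, 398, 409.7 and 324 CPM against 11.4 to 37.9 CPM (log2 ratio 3.37). Tcrg-C3, Tcrg-C4 and Trdc were also higher, at 35.7, 124 and 194 CPM against 0.653, 15 and 83.2 CPM. Trgv2 was within 2-fold, at 88.4 and 71.9 CPM, so 5 of the 6 listed genes were higher, beside 2.47% of all genes, and none lower. Ptcra, the pre-TCRα chain, was instead at 10.1, 17.1, 39 and 30.8 CPM in members of rows 11, 13, 15 and 17, against 19.7, 41.7, 50.6 and 49.0 CPM in the other cells. It was lower in each row but under 2-fold (log2 ratio -0.65), while the pooled level of members, 21.4 CPM, lay beside 17.3 CPM in the other cells past the exclusions. Tcrg-C1, Tcrg-C2 and Tcrg-C3 are near-identical copies, and how the reads they share were divided is uncertain, so they are not independent in the count above.

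Tcrg-C1 had a UMI in 249 members (59.7%, 95% Clopper-Pearson interval 54.8 to 64.5), and in 38.5% (33.8 to 43.4) after thinning. B cell-like cells, taken as a stand-in for background from free RNA, had a median of 6079.5 UMIs. They had Tcrg-C1 in 2.29% before and 0.518% after thinning, and the part of free RNA in members was not tested. The UMIs of Tcrg-C1 were spread over the members, with 17.9% in the 10 highest cells. Trdc had a UMI in 54.9% of members and in 29.3% after thinning, against 0.907% of thinned B cell-like cells and 21.2% (11.1 to 34.7) of thinned DP-like cells. The last interval overlaps that of the members, 24.95 to 33.95.

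**Figure D3:**
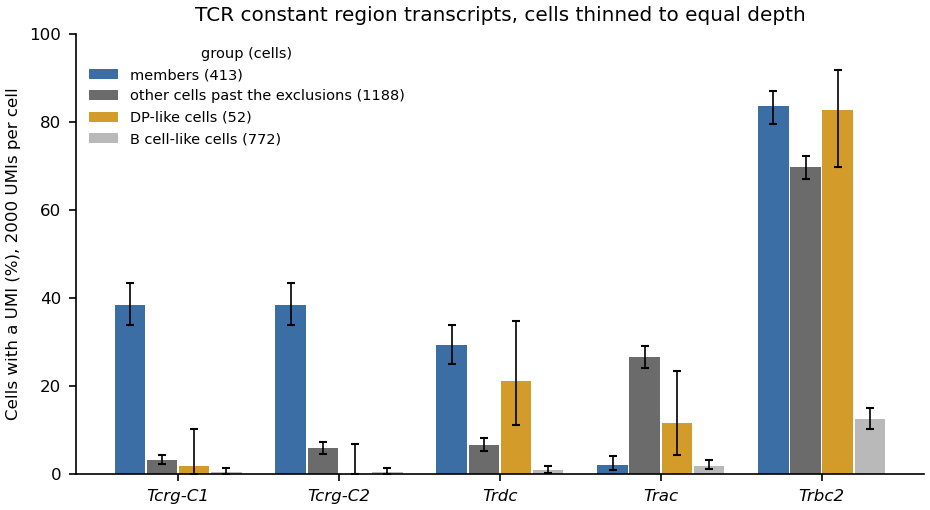
Percentage of cells with a UMI of 5 TCR constant region genes after thinning to 2000 UMIs, with exact 95% intervals. Shown are members (413 cells), the other cells past the exclusions (1188), DP-like cells (52) and B cell-like cells (772). Cells too shallow for thinning were left out. Tcrg-C1 and Tcrg-C2 are each found in 38.5% of members, Trac in 2.18% of members and 26.5% of the other cells past the exclusions.

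Genes that γδ T cells use after their receptor is made were split. Sox4 and 5830411N06Rik (a SCART receptor gene) were higher in members than in the other cells, at 626 and 22.4 CPM against 255 and 5.64 CPM. Id3, induced by TCR signals, was lower, at 94.0 CPM against 249 CPM. Sox13 was at 17.6 CPM against 5.01 CPM, Maf at 5.81 CPM and Cd163l1 at 8.51 CPM, and Il17a and Il23r had 0 UMIs. Of the 6 countable genes of this list 2 were higher and 2 lower, with a median log2 ratio of 0.30. Against the cells past the exclusions, Sox4 (613 CPM there) and 5830411N06Rik (7.52 CPM there) were within 2-fold. In that contrast 1 of the 6 countable genes was higher and 1 lower. The whole list summed to 803 CPM in members and 1300 CPM in those cells.

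Of the 3 listed αβ receptor genes 1, Trac, was lower in members than in all other cells, and none was higher. Trbc2, the TCRβ constant region, was at 1061, 1074, 1110.2 and 1256 CPM in members, above each row of the other cells (412 to 981 CPM) though under 2-fold. It was close to the cells past the exclusions, at 1098 against 1011 CPM (log2 ratio 0.12). Trbc2 had a UMI in 96.2% of members (83.5% after thinning, 12.6% in thinned B cell-like cells). Trac was lower than in the other cells in all rows, at 10.1, 15, 12.4 and 19.3 CPM against 37.9 to 69.0 CPM. Of the thinned members 2.18% (1.00 to 4.10) carried Trac, close to the 1.94% (1.09 to 3.18) of B cell-like cells at this depth. Before thinning the shares were 9.83% and 4.58%. Over all UMIs, Trac was at 13.5 CPM (10.4 to 17.2) in members and 6.88 CPM in B cell-like cells. The library read transcripts from their 5′ end, so a rearranged transcript can be counted on its variable segment or on its constant region. TCRβ variable segments summed to 507 CPM in members, against 1939 CPM in the other cells past the exclusions, 3030 CPM in DP-like cells and 105 CPM in B cell-like cells.

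The TCRβ variable segments of members were led by a single gene. Trbv13-2 held 303 of 601 such UMIs in row 11 (50.4%, 95% Clopper-Pearson interval 46.3 to 54.5), 358 of 821 in row 13 (43.6%, 40.2 to 47.1), 128 of 664 in row 15 (19.3%, 16.3 to 22.5) and 151 of 356 in row 17 (42.4%, 37.2 to 47.7). In the other cells of these rows its share was 10.7% to 12.6%, and in DP-like cells 9.20%. Row 15 stood apart from the other three rows, and each row of the members was above that of its other cells. A UMI of it was found in 250 members (60.0%) and in 30.3% after thinning, against 24.0% and 12.9% of the other cells and 9.29% and 3.89% of B cell-like cells. The 10 highest cells held 21.8% of its UMIs in members.

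Genes that carry TCR signals were level with or below the other cells. Of 12 listed genes Cd3d and Zap70 were lower than in all other cells and none was higher, with a median log2 ratio of -0.45. Against the cells past the exclusions 6 were lower (Cd3e, Cd3d, Zap70, Cd5 and Cd6 among them), with a median of -1.25, while Lat and Lck, at 470 and 432 CPM in members, were at 463.5 and 501.5 CPM there. Of all genes, 5.02% were lower than in all other cells and 4.41% lower than in the cells past the exclusions. Zap70, the kinase that binds the phosphorylated receptor, was at 18.1, 33.7, 49.4 and 86.7 CPM in rows 11, 13, 15 and 17, with 65.9 to 127 CPM in the other cells. Cd3d, a CD3 subunit, was at 122, 150, 236 and 320 CPM in the same rows, with 289, 438, 440 and 597 CPM in the other cells. Both genes were lowest in row 11 and highest in row 17, in members and in the other cells alike.

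The lowest ratios against the cells past the exclusions were those of antibody variable segments, led by Ighv2-3 at 13.1 against 469 CPM. Nr4a1, an immediate target of TCR signals, was at 31.1, 30.5, 34.2 and 32.7 CPM in the rows of members, against 367 CPM in that reference and 110 CPM in all other cells. Pdcd1, the inhibitory receptor PD-1, was at 45.4 against 437 CPM, Itm2a, which thymocytes induce on selection, at 51.0 against 664 CPM, and Ikzf3, which encodes Aiolos, at 22.4 against 249 CPM. Pdcd1, Itm2a and Ikzf3 were picked from the lowest genes after their values were seen. Of 6 countable genes of regulatory and agonist-selected T cells 5 were lower there and none higher, with Tnfrsf9, Ikzf2 and Egr2 among them. Of 8 genes of mature T cells Gimap4, Gimap6 and Klf2 were lower there and none was higher. Of all genes, 4.41% were lower in that contrast. Nr4a1 was instead at 5.04 CPM in DP-like cells, below members.

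Of the genes of innate lymphoid and NK cells, Nkg7, a granule protein of cytotoxic cells, was higher. It stood at 317, 300, 220 and 247 CPM in members against 41.4 to 53.9 CPM in the other cells, and it had a UMI in 78.2% of members (41.2% after thinning, 6.61% in thinned B cell-like cells). Klrb1c, Tbx21 and Eomes were at 4.77, 3.11 and 1.45 CPM, and Ncr1 and Il1rl1 had 0 UMIs. Id2 and Fcer1g were lower than in all other cells, at 30.9 and 55.0 CPM against 206 and 150 CPM.

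The genes lowest in members against all other cells were those of B cells and of antigen presentation. The 10 with the smallest ratios were all immunoglobulin or MHC class II pathway genes, led by Cd74, the MHC class II chaperone, at 88.2 CPM against 11551 CPM, and 87 immunoglobulin genes were among the 441. The exclusions on Cd79a and H2-Aa fix this direction. The summed level of the 8 B cell genes was 185, 219, 201 and 202 CPM in the rows of members and 204 CPM over them, 2893 CPM in all other cells and 237 CPM in those past the exclusions, with Ighm the most abundant and Ebf1 and Pax5 at 0.415 CPM each. That of the 9 dendritic cell genes was 205, 188, 124 and 127 CPM in the rows, and 172, 17815 and 561 CPM in the 3 groups, with Cd74 the most abundant and Xcr1 at 0. The 6 macrophage genes summed to 12.9 CPM, with Adgre1 at 0 and Apoe the most abundant. The 9 genes of mast cells and basophils, cells that also make Cpa3, summed to 2.90 CPM, and Fcer1a, Ms4a2, Mcpt4, Tpsb2, Cma1 and Prss34 had 0 UMIs. The part of such cells in the members' values was not tested. Of the plasmacytoid dendritic cell genes Siglech was at 0 and Ly6d, which lymphoid progenitors share, the most abundant at 707 CPM. Of the thymic epithelium and stroma genes Foxn1, Psmb11, Krt8 and Pdgfra were at 0 and Epcam at 16.4 CPM.

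Cell cycle genes were level to slightly higher. None of 12 S phase and 10 G2/M genes reached 2-fold against all other cells, with median log2 ratios of 0.52 and 0.58 beside 0.11 for all genes. Mki67 was at 611, 564, 661 and 776 CPM in members and at 267 to 453 CPM in the other cells. Against the cells past the exclusions 2 of the G2/M genes were higher (Ccnb1 and Cdc20). DP-like cells had 895 CPM of Mki67. Of the 8 stress genes Fos was lower than in all other cells, at 150 against 381 CPM, and none was higher, while Jun, Hspa1a and Hspa1b were higher than in the cells past the exclusions.

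Against the 67 DP-like cells members were at least 2-fold higher for 458 of 8392 genes (5.46%) and lower for 157 (1.87%). These cells held 595643 UMIs, so their low levels carry wide intervals. Members lay above them for Mpo, Cd34 and Hbb-bt, each with 0 UMIs in DP-like cells, and for Tcrg-C1 (13.4 CPM, interval 5.80 to 26.5). They lay below for Arpp21, Themis and Ptcra, at 212, 66.2 and 21.4 CPM in members and 539, 326 and 119 CPM in DP-like cells.

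To describe the span inside the group, members were divided by Mpo and Plac8 at the early end and by Ptcra and Tcrg-C1 at the T end. Of 417 members, 118 (28.3%, 95% Clopper-Pearson interval 24.0 to 32.9) had a UMI of the early genes only, 257 (61.6%, 56.8 to 66.3) of both pairs, 11 (2.64%, 1.32 to 4.67) of the T genes only and 31 (7.43%, 5.11 to 10.4) of neither. The larger classes moved when cells were first thinned to 2000 UMIs, to 41.2% early only and 43.4% both. T only stayed inside its interval, at 4.55% with limits of 500 genes and 10% mitochondrial UMIs, and 4.09% when cells were first thinned. Neither was 4.02% with a sum of at least 3 and 11.75% when the split needed 2 UMIs. Plac8 and Tcrg-C1 carried most of this split, in 374 and 249 members, while Mpo was in 130 and Ptcra in 43. Mpo and Tcrg-C1 met in 47 members, and Mpo and Ptcra in only 2. With Mpo alone at the early end, 19.9% were early only, 11.3% both, 53.0% T only and 15.8% neither, and with Ptcra alone at the T end 81.5% were early only and 8.39% both. In 21 members the early side, and in 45 the T side, rested on 1 UMI, so these lie at the border.

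The rows differed in this mix. Early only cells were 50 of 116 members in row 11 (43.1%), 37 of 175 in row 13 (21.1%), 22 of 80 in row 15 (27.5%) and 9 of 46 in row 17 (19.6%). T only cells were 0, 3, 4 and 4 in the same rows. Median depth was alike in the early only and both classes, at 10916.5 and 12091 UMIs, but 4125 UMIs in the T only and 4320 UMIs in the neither class. The T only class held 70293 UMIs, so that a gene with no UMI there may be at up to 52.5 CPM (exact Poisson limit), and the contrast between the ends was therefore read only for single genes. Ifitm1, Ifitm2, Cd34, Tyrobp and Hbb-bt had 0 UMIs there, against 411, 457, 253, 316 and 235 CPM in early only cells. Rag1 was at 270.3 CPM in T only cells (interval 163 to 422) and 2.96 CPM in early only cells, and Notch3 at 157 and 3.71 CPM.

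Early only and both cells were compared over all 4 rows pooled, and a call also needed 1 direction in rows 11, 13 and 15, since row 17 held only 9 early only cells. This comparison was added after the data were seen, and both classes are parts of the same selection. Of 8559 genes 71 (0.83%) were at least 2-fold higher and 45 (0.526%) lower in early only cells. The counts became 330 and 247 when cells were first thinned to 2000 UMIs, 109 genes were higher without row 13, and 71 were lower without row 15. Of 17 early progenitor genes 8 were higher and none lower, with a median log2 ratio of 0.96 beside 0.03 for all genes. They were Flt3, Cd34, Lmo2, Mef2c, Hhex, Bcl11a, Spi1 and Hoxa9, none of which was used by the split or by the sum. Flt3 was at 90.9, 30.7 and 22.8 CPM in early only cells of rows 11, 13 and 15 and at 1.28, 3.68 and 1.44 CPM in both cells (log2 ratio 2.38). Hoxa9, a homeobox factor of stem and progenitor cells, was at 92.6, 37.8 and 45.7 CPM against 5.10, 6.62 and 8.66 CPM (log2 ratio 2.13). Each was highest in row 11, and the classes did not overlap. Spi1 (PU.1), which drives myeloid and early lymphoid genes, was at 211, 177 and 118 CPM against 67.6, 48.5 and 49.1 CPM. Some genes that myeloid cells express were higher as well, with Tyrobp at 316 against 100.1 CPM, Fcer1g at 92.6 against 37.6 CPM and Ctsg at 47.4 against 17.2 CPM. Tyrobp and Fcer1g were picked after their values were seen. Of the 4 countable granulocyte genes only Ctsg was at least 2-fold higher after 10 CPM were added, and Lyz2, Srgn and Calr were not. The part of such cells in this difference was not tested.

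Of 15 countable T commitment genes Bcl11b and Thy1 were lower in early only cells and Cd7 was higher, at 86.7 against 21.0 CPM, with a median log2 ratio of -0.24. Bcl11b was at 24.5, 63.8 and 91.3 CPM in early only cells and at 202, 197 and 238 CPM in both cells of rows 11, 13 and 15 (log2 ratio -1.76). Thy1, a surface protein of T lineage cells, was at 133, 234 and 301 CPM against 413, 539 and 703 CPM. Early only cells of row 15 stood apart for some T cell genes, picked after their values were seen. In early only cells of rows 11, 13 and 15, Lef1 was at 29.7, 44.9 and 350 CPM and Cd3e at 114, 104 and 346 CPM. Tnfrsf9 was at 0, 0 and 87.5 CPM in the same cells. Tcrg-C2, which the split did not use, was at 15.7, 113 and 145 CPM against 484, 510 and 562 CPM (log2 ratio -2.66). Tcrg-C3, Tcrg-C4 and Trdc were lower as well, so 4 of 5 countable γδ receptor genes were lower and none higher. Since Tcrg-C1 set the split and shares much of its sequence with Tcrg-C2 and Tcrg-C3, their shift is not independent of it. Cd3g, Lat, Rag1, Notch3, Myl10, Lgals1 and Ly6d were among the other genes lower in early only cells. Dntt, Hes1 and Notch1 stayed within 2-fold, at 654, 41.5 and 200.1 CPM in early only and 858, 40.4 and 172 CPM in both cells.

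**Figure D4:**
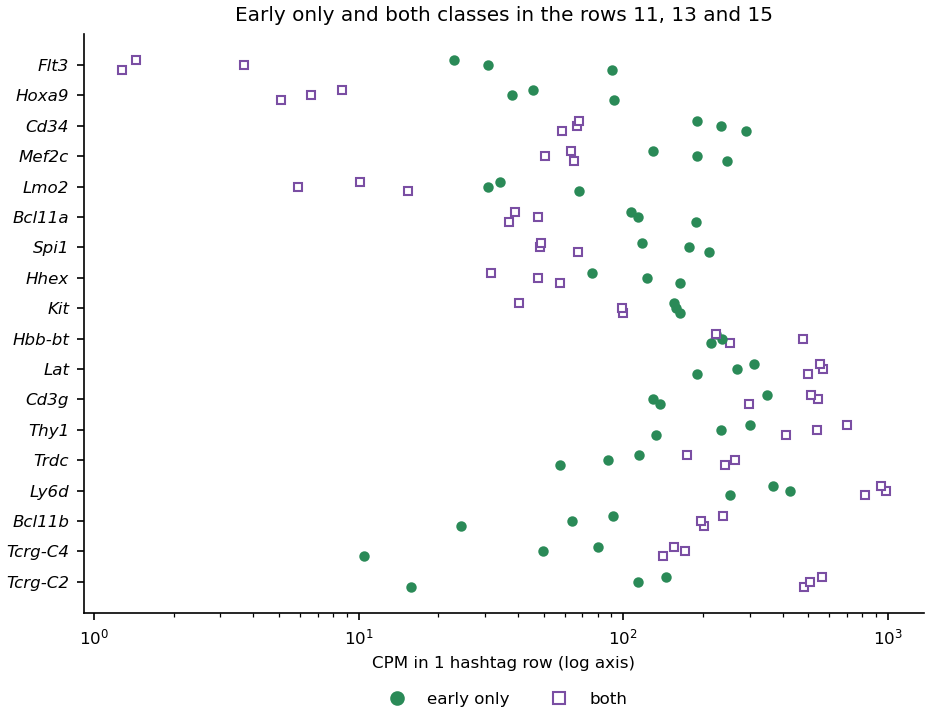
CPM of 18 genes (log axis) in early only members (filled circles) and members with both pairs of genes (open squares), 1 point for each of the rows 11, 13 and 15. From Flt3 to Kit the circles lie to the right, Hbb-bt overlaps, and from Lat to Tcrg-C2 the circles lie to the left, except that Cd3g of row 15 early only cells (350.2 CPM) lies above the lowest value of the squares (299.8 CPM).

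A second division, also added after the data were seen, used Il2ra and Ptcra. It gave 101 members with a UMI of neither (24.2%), 273 with Il2ra and no Ptcra (65.5%) and 43 with Ptcra (10.3%), with median depths of 11033, 11302 and 8144 UMIs. Il2ra belongs to the sum, and members without it had to pass through the other 3 genes, so their levels of Cpa3, Adgrg1 and Igfbp4 are set in part by the rule. A missing UMI of Il2ra is not a missing transcript, and 49 members carried it in exactly 1 UMI.

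The 20 early progenitor genes summed to 1954, 1808 and 824 CPM in these classes, the 16 T commitment genes to 2283, 2278 and 4152 CPM and the 12 TCR signalling genes to 2394.5, 1966 and 4175 CPM. The lists thus did not share 1 order. Genes of mature T cells summed to 540, 302 and 176.5 CPM in the same classes. Those of regulatory and agonist-selected T cells summed to 454, 264 and 125 CPM, so both were highest in members with neither gene. The γδ receptor genes summed to 449, 1738 and 1020 CPM, the recombination genes to 658, 825 and 1130 CPM and the αβ receptor genes to 1337, 1377 and 1229 CPM. Cd34 was at 233 CPM (95% Poisson interval 206 to 262) in members with neither, 81.2 CPM (71.5 to 91.7) in those with Il2ra alone and 4.31 CPM (0.521 to 15.5) in those with Ptcra. Mpo was at 334, 140.4 and 8.61 CPM, Flt3 at 44.1, 8.88 and 2.15 CPM and Mef2c at 172, 74.2 and 12.9 CPM in the same classes. The order held in each of the 4 rows for Cd34 and Mpo, with 0 UMIs of Cd34 in the Ptcra class of rows 11, 13 and 17. In the other direction, Bcl11b was at 73.2, 185 and 252 CPM, Ly6d at 210, 845 and 1057 CPM and Thy1 at 295, 415 and 1141 CPM. Bcl11b climbed in this order in each row, from 33.2 to 166 to 272 CPM in row 11 and from 115 to 175 to 275 CPM in row 17, while Ly6d was lower with Ptcra (584 CPM, 5 cells) than with Il2ra alone (784 CPM) in row 11.

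Other genes peaked in the middle or were highest with Ptcra. Tcrg-C1 was at 65.8 CPM (interval 52.1 to 81.9) in members with neither, 775 CPM (744 to 806) in those with Il2ra alone and 243 CPM (200.4 to 292) in those with Ptcra, and the middle class was highest in every row. Plac8 and Tcrg-C2 had the same shape, at 737, 1725 and 695 CPM and at 75.7, 489 and 217 CPM. Hbb-bt was at 95.7, 495 and 123 CPM, but this order leaned on few cells and rows: row 17 had 1401.5 CPM in the middle class, where 1 cell held 231 of its 448 UMIs, and in row 15, the only row with UMIs in the Ptcra class, that class was higher (301 CPM) than the middle one (208 CPM). Rag1 was at 4.99 and 6.97 CPM in the classes without Ptcra and at 123 CPM (92.9 to 159) with it, and Notch3 at 1.67, 14.3 and 64.6 CPM. Tcf7 was at 430, 522 and 1126 CPM and Arpp21, an RNA-binding protein abundant in DP cells, at 117, 218 and 418 CPM. Lef1 was lowest in the middle, at 231, 50.1 and 286 CPM.

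The share of Trbv13-2 among TCRβ variable segment UMIs followed the middle class too. It was 23.6% (95% Clopper-Pearson interval 20.8 to 26.7) of 825 UMIs in members with neither gene and 62.5% (59.6 to 65.4) of 1121 UMIs in those with Il2ra alone. Members with Ptcra had 496 such UMIs, led by Trbv5 with 14.9% (11.9 to 18.4). The summed level of these segments was 687, 355 and 1067.5 CPM in the 3 classes, so the middle class had the lowest level and the largest share of a single segment.

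**Figure D5:**
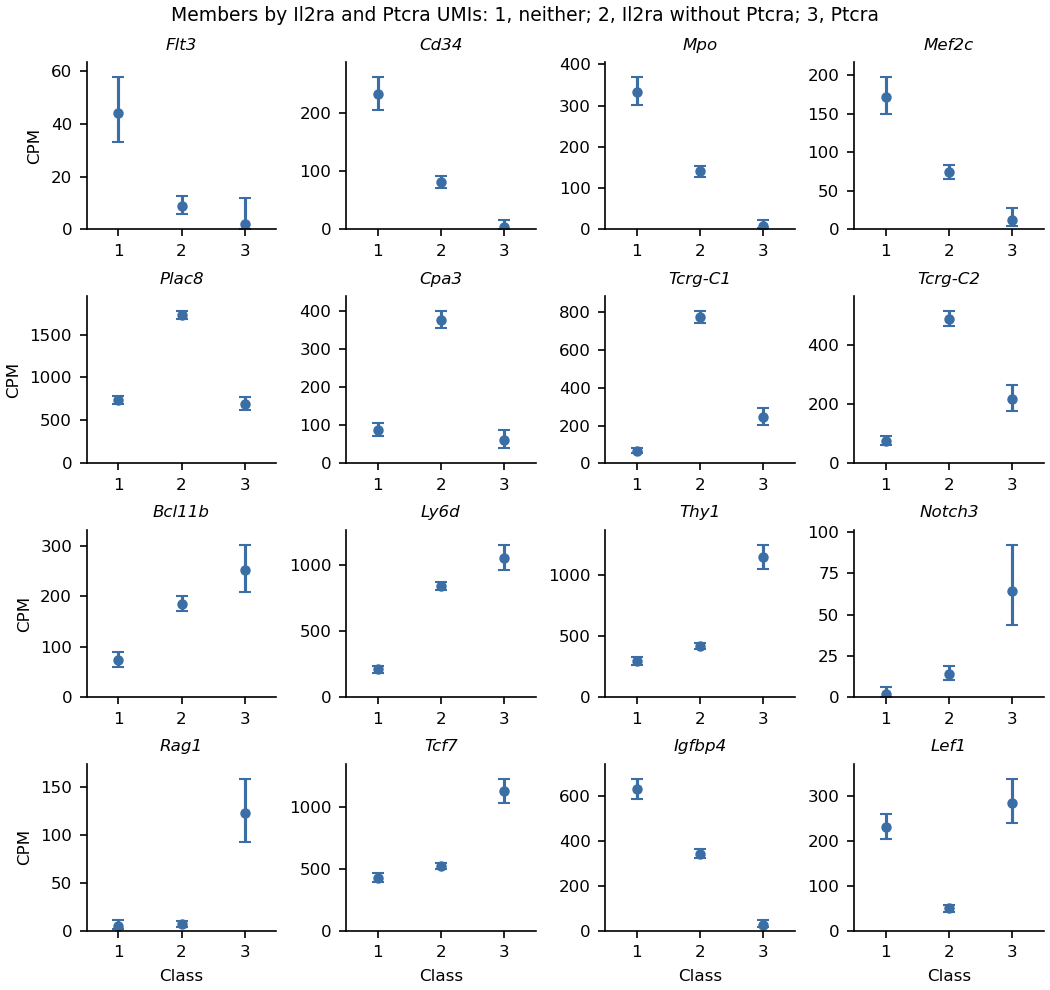
CPM of 16 genes in members without Il2ra and Ptcra (class 1), with Il2ra and without Ptcra (class 2) and with Ptcra (class 3), summed over the 4 rows with exact 95% Poisson intervals, each panel on its own linear axis from 0. Cd34 falls from 233 to 81.2 to 4.31 CPM, Tcrg-C1 peaks in class 2 at 775 CPM, and Rag1 reaches 123 CPM in class 3.

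Members with neither pair of the first division were unlike the early only cells. These 31 cells had 321 CPM of Ccr7, 540.1 CPM of Id3, 453 CPM of Ikzf2 and 107 CPM of Trac, against 12.6, 87.4, 119 and 9.63 CPM in early only cells. Ccr7 is the chemokine receptor of thymocytes that move to the medulla. Cd3e was at 919.7 CPM, and Mpo had 0 UMIs and Cd34 14.6 CPM (interval 3.01 to 42.7). They met the sum mostly with Igfbp4 (346 CPM) and Il2ra (175 CPM). Their TCRβ variable segments were led by Trbv1, with 36.5% of 359 UMIs, and summed to 1747 CPM. The early only values of Id3 and Ikzf2 leaned on row 15. In early only cells of rows 11, 13 and 15, Id3 was at 33.2, 42.55 and 220.8 CPM and Ikzf2 at 75.1, 82.7 and 274 CPM.

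In rows 12, 14, 16 and 18 the same thresholds picked 39 cells of 5758. Their median depth was 3427 UMIs, and they carried Il2ra at 476 CPM but 0 UMIs of both Mpo and Cd34 (interval up to 21.9 CPM). Nkg7 was at 1141 CPM, Klrb1c at 279 CPM and Tbx21, the factor of type 1 effector cells, at 149 CPM, beside the 1538.5, 409 and 198 CPM of the other cells of those rows. Tcrg-C1 was at 166 CPM (111 to 241), above the 40.3 CPM of those other cells. Plac8 was at 226 CPM (159.9 to 310), above the 30.0 CPM of those other cells and below the 1379 CPM of members.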

How the data were processed

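Gene and hashtag UMIs were measured in 1 droplet library of 8 sorted populations (10X Genomics V(D)J chemistry, read from the 5′ end). The authors aligned and counted with Cell Ranger 6.0.0 (mm10) and deposited unnormalized counts of 32285 genes and 20 hashtags for 16179 barcodes. Of the barcodes, 12147 reached 1000 genes without exceeding 5% mitochondrial UMIs, of which 10007 had 80% of at least 10 UMIs on 1 of the rows 11 to 18. Doublets within a hashtag were not removed and no caller was run. Ribosomal and Gm genes were kept. Counts were summed per group and row in Python 3.11.15 with pandas 2.3.3 and scipy 1.17.1, and ratios used a pseudocount of 10 CPM. The step was checked on simulated data. Cells are no replicates and the rows have no labels, so no test was run and no p-value is given.

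The members and the 27 gene lists were chosen with earlier results of these data known. The genes named are the rule genes, the listed genes, the 20 highest and 10 lowest in members among those with 1 direction in all rows with at least 20 members, and the 10 at each end of the early only to T only contrast. Genes leading the added contrasts (Pdcd1, Itm2a and Ikzf3 against the cells past the exclusions, and those between early only and both) were chosen after their values were seen. So was Trbv13-2. Alternatives changed the cell filters, the sum, the depth, the pseudocount, the filter on low genes, the reference cells and the split, or left out 1 row; the reference past the exclusions, the comparison of early only with both and the split by Il2ra and Ptcra were added after seeing the data. Gene positions are those of GENCODE M21 on GRCm38, the mm10 assembly. Some listed genes are not reported here.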

Additional observations from a re-analysis of the deposited data

Results flagged for a closer look

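Signal appeared outside the data used for the comparisons in 3 places. Hashtag row 1 held 12255 UMIs and hashtag row 4 held 11854 UMIs, while the other rows outside 11 to 18 held between 12 and 599. Of the kept cells, those assigned to row 14 carried 6978 of the UMIs of row 1, and those assigned to row 15 carried 5258 of the UMIs of row 4, with 819 in row 14. Members carried 8 UMIs of row 1 and 580 of row 4. In the rows 12, 14, 16 and 18, which the selection left out, 39 cells passed the member thresholds.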

How the results depend on the processing

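Members and other cells came from the same rows, and the unweighted mean of the row log2 ratios gave 203 higher and 423 lower genes. Of the 70 named genes called against all other cells, none turned in 14 planned settings that kept this reference, and at least 45 stayed 2-fold, with the fewest at a pseudocount of 50 CPM. Changes of the pseudocount or of the filter on low genes cannot change the sign of a ratio. Nor can the mean of the row ratios, since a call needed 1 direction in all rows. For these settings the absence of turned genes was therefore fixed in advance. With DP-like cells as reference 41 stayed 2-fold and 458 genes were higher and 157 lower. There Igkv2-137 (0.059), Igkv14-111 (0.12), Igkv1-117 (0.59), Iglv2 (0.30), Flt3 (1.21), Ly6a (2.15), Lyz2 (1.45), Cd2 (0.12), Fcer1g (1.58), Nr4a1 (1.47), Ccr7 (1.32) and Gimap4 (0.46) turned to a positive log2 ratio and Dntt to -0.30. With the cells past the exclusions as reference 51 stayed 2-fold, and Igkv2-137 (0.0026), Flt3 (0.40) and Ly6a (1.19) turned. The cause was not tested.

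Members were 8.78% of cells with a sum of at least 3, 7.89% with cells thinned to 2000 UMIs before the selection and 7.35% without cells of over 4000 genes, where 337 genes were higher. The share in rows 12, 14, 16 and 18 was 0.156% with a sum of at least 3 and 0.231% after thinning. A pseudocount of 1 CPM gave 367 higher genes, one of 50 CPM 55 higher and 176 lower, and a minimum of 50 CPM 93 and 179. When 500 genes and 10% mitochondrial UMIs were the limits, the both class was 55.1% and Tcrg-C1 was in 54.7% of members. With cells thinned before the members were chosen, early only was 41.2%, both 43.4%, neither 11.3% and Tcrg-C1 was in 44.3%. Then 330 genes were higher and 247 lower in early only cells. The thinned shares of cells in the Results differ from these, since there the members were chosen first and thinned afterwards. Neither was 4.02% with a sum of at least 3. A split at 2 UMIs gave 34.8% early only, 50.1% both and 11.8% neither, Ptcra alone gave 81.5% and 8.39%, and Mpo alone 19.9%, 11.3%, 53.0% T only and 15.8% neither. Leaving out 1 row in turn, early only was 22.6% (without row 11) to 33.5% (without row 13), both 56.2% to 65.8%, T only 1.89% to 3.65% and Tcrg-C1 54.1% to 63.5%. Early only cells then had 67 to 109 higher genes (109 without row 13) and 44 to 71 lower (71 without row 15). The T only class held 11 cells and was 4.09% after thinning.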
